A study of Mus musculus with 28 samples.

Results

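Among bone and bone marrow cells of 4 single-cell RNA-seq libraries, 4713 cells combined the transcripts of marrow stroma with those of bone-forming cells. They were chosen by 3 criteria: at least 200 genes detected, at least 1% of the cell's UMIs (unique molecular identifiers, one per captured transcript) from the stromal genes Adipoq, Cxcl12, Lepr, Lpl, Hp, Kng1 and Esm1, and at least 3 UMIs summed over the osteogenic genes Alpl, Wif1, Spp1, Postn, Limch1 and Ibsp. The criteria took 76.0% of all 6205 cells and 94.2% of the 5003 cells that met the stromal criterion, which left 290 stromal cells under the osteogenic minimum. The cells had been proposed as a marrow stromal subset primed for bone formation. The data went against a subset: nearly every stromal cell qualified, and Spp1 and Ibsp supplied between 94.6% and 97.5% of the UMIs that qualified it. The cells are therefore called Spp1/Ibsp-positive stromal cells here, and the 290 remaining cells are called Spp1/Ibsp-low stromal cells.

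The cells were CD45-Ter119-CD31-Ai9+ cells sorted from the marrow and the crushed bone of mice that carried the Rosa26 Ai9 reporter, in which Cre switches on a red fluorescent protein for the life of a cell and its descendants. The 8-week-old libraries came from Osx-Cre mice, whose Cre is driven by an osteoblast-lineage promoter, and from Prx1-Cre mice, whose Cre acts in the limb mesenchyme. The 16-week-old libraries came from Prx1-Cre; Z24 fl/+ mice (control) and Prx1-Cre; Z24 fl/fl mice (CKO), so that both carried Prx1-Cre and at least 1 floxed allele of Z24 (Zmpste24, the protease that matures lamin A). Each of these 4 groups had 1 library, which pooled mice in the 16-week-old groups, and the labels also give the 8-week-old libraries a Z24 fl/fl genotype that the study's methods do not. After the gene minimum the Osx-Cre, Prx1-Cre, control and CKO libraries held 782, 993, 2068 and 2362 cells and 1041854, 1559936, 3687717 and 3513305 UMIs, and values of the 4 libraries are given in this order throughout. With 1 library per group no difference between libraries could be tested. Age, Cre line and genotype cannot be told apart from the library that carries them. Of the cell barcodes, 21 were shared between a pair of libraries, and 14 of these belonged to Spp1/Ibsp-positive cells in both.

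Marrow stromal cells that express Cxcl12 and the leptin receptor surround the sinusoids, hold blood stem cells through Cxcl12 and stem cell factor, and are a source of adipocytes and osteoblasts in adult bone. Osteoblasts lay down type I collagen, raise local phosphate with the alkaline phosphatase Alpl, and secrete the acidic phosphoproteins osteopontin (Spp1) and bone sialoprotein (Ibsp), which bind mineral and integrins. Osteocalcin (Bglap) marks mature osteoblasts, and Dmp1 and Mepe mark cells that become osteocytes.

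Spp1 and Ibsp are neighbours in one cluster of bone matrix genes on mouse chromosome 5 (GRCm38): Ibsp spans chr5:104299171-104311469 and Spp1 spans chr5:104435118-104441050, both on the plus strand, with Mepe between them at chr5:104325329-104338611 and Dmp1 at chr5:104202613-104214102. The levels below are whole-gene UMI sums per 1000000 UMIs of the cells named (CPM), counted at the 3′ end of transcripts. The levels of the 6 genes chose the cells, so they are given as a description. Ibsp stood at 7498, 8944, 8440 and 7960 CPM and was detected in 85.3%, 95.2%, 94.5% and 94.8% of Spp1/Ibsp-positive cells. Spp1 stood at 5823, 5652, 6929 and 6096 CPM, in 87.1%, 81.6%, 92.9% and 90.1% of cells. Both genes were thus abundant in each library, and the highest library exceeded the lowest by 1.19 times for Ibsp and 1.23 times for Spp1. The remaining 4 genes were far lower. Limch1, an actomyosin regulator, stood at 414, 223, 195 and 197 CPM and Wif1, a secreted Wnt inhibitor, at 287, 239, 156 and 186 CPM. Alpl stood at 49.6, 72.5, 44.5 and 63.2 CPM, with a UMI in at most 7.22% of the cells of any library. Postn, a matricellular protein of periosteum, was at 4.31, 7.84, 5.52 and 2.99 CPM and was found in at most 0.595% of cells. Limch1 and Wif1 were highest in the Osx-Cre library and Alpl in the Prx1-Cre library, while Postn was close to absent from all of them. Most cells held 2 of the 6 genes, at 51.4%, 56.8%, 57.7% and 55.7% of the cells, and all 6 were found together in 0, 0, 2 and 2 cells.

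**Figure D1:**
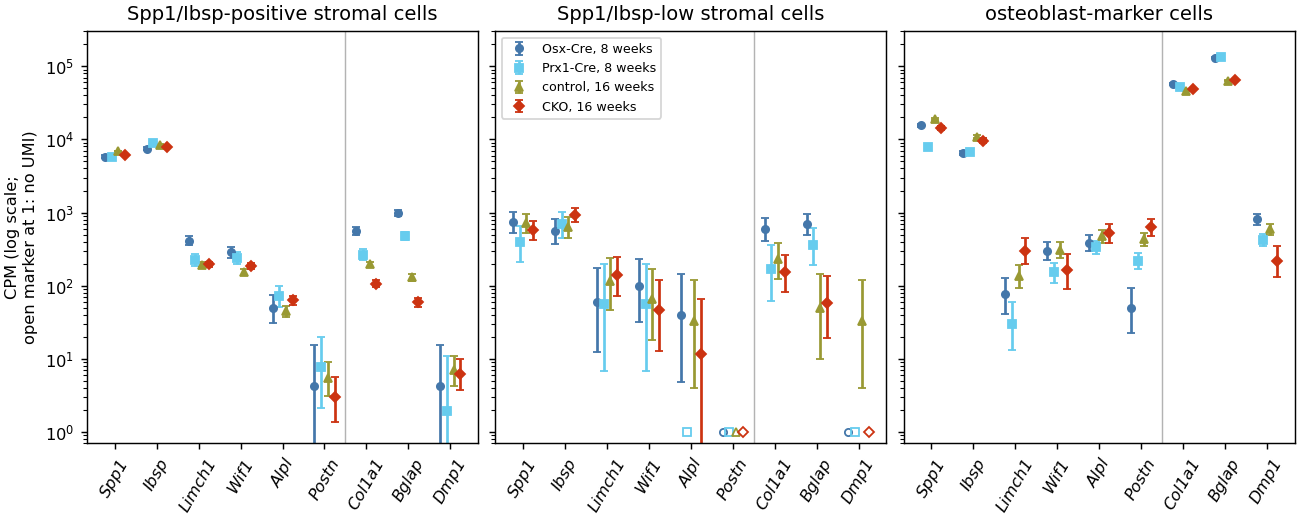
Levels of the 6 osteogenic genes of the rule and, right of the line, of Col1a1, Bglap and Dmp1, in CPM on a log axis, in Spp1/Ibsp-positive stromal cells, Spp1/Ibsp-low stromal cells and osteoblast-marker cells of the 4 libraries, with exact Poisson 95% intervals that cover counting error only (open markers at 1 stand for no UMI). Ibsp and Spp1 stand above 5000 CPM in the positive cells of all 4 libraries and Postn under 10, and Bglap is at 63361 CPM or more in the osteoblast-marker cells.

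The stromal genes of the rule, whose sum also chose the cells, are likewise a description. Cxcl12, the chemokine that retains blood stem cells, stood at 21323, 21884, 25902 and 25582 CPM, Lepr at 675, 790, 762 and 802 CPM, and Adipoq, the adipocyte hormone adiponectin, at 2003, 2216, 2285 and 2131 CPM. Outside the rule, Runx2, the master regulator of osteoblast fate, was at 134, 149, 151 and 150 CPM, and Sp7 (osterix), which acts after it, at 28.0, 33.3, 35.3 and 29.6 CPM. The genes of later osteoblast stages did not follow Spp1 and Ibsp. Bglap stood at 977, 478, 130 and 59.2 CPM, and 271 of its 453 UMIs in the Osx-Cre library came from 1 cell. A Bglap UMI was nevertheless present in 30.3%, 35.9%, 7.43% and 5.33% of the positive cells. In the Spp1/Ibsp-low cells Bglap stood at 697, 363, 49.2 and 59.0 CPM. Dmp1 stood at 4.31, 1.96, 6.99 and 6.32 CPM.

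Cells outside the stromal criterion in which Bglap, Bglap2, Bglap3, Ifitm5, Col1a1 and Col1a2 made up at least 2% of UMIs numbered 75, 90, 71 and 49 and served as the osteoblast reference. There Bglap reached 131164, 135509, 63361 and 64432 CPM and Col1a1 reached 57070, 51157, 46161 and 49126 CPM, against 561, 267, 196 and 106 CPM of Col1a1 in the Spp1/Ibsp-positive cells. Spp1 in these osteoblast-marker cells was at 15508, 7777, 19016 and 14176 CPM and Ibsp at 6522, 6764, 10890 and 9606 CPM. Ibsp in the osteoblast-marker cells was 0.870, 0.756, 1.29 and 1.21 times its level in the Spp1/Ibsp-positive cells of the same library, whereas Bglap was 134, 283, 486 and 1088 times as high. Both classes were chosen on these genes, the positive cells on Ibsp and the reference cells on Bglap and Col1a1, which sets much of this contrast. The ratio of Ibsp to Spp1 is given as a description too. There were 1.29, 1.58, 1.22 and 1.31 Ibsp UMIs per Spp1 UMI in the Spp1/Ibsp-positive cells and 0.421, 0.870, 0.573 and 0.678 in the osteoblast-marker cells, and 0.757, 1.79, 0.886 and 1.61 in the Spp1/Ibsp-low cells, on 43 to 145 UMIs of the 6 genes. In the 9 erythroid-marker cells of the control library, non-stromal cells with at least 5% of UMIs from globins, which should lack both genes, Spp1 and Ibsp had 1 UMI each (30.5 CPM) at a median of 3412 UMIs per cell. None of the 9 had 3 or more UMIs of the 6 genes, which allows a share of up to 33.3%. The CKO library held 2 such cells, 1 of which had 3 or more, with Spp1 at 765 CPM and Ibsp at 153 CPM over both cells (5 and 1 UMIs), and the 8-week-old libraries held none, so that the background of free RNA was not measured there.

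The share of stromal cells that met the osteogenic minimum was 89.2% (exact binomial 95% interval 86.4 to 91.7), 92.3% (89.8 to 94.3), 95.9% (94.9 to 96.8) and 94.6% (93.5 to 95.5). The intervals cover counting error only. The control and CKO intervals overlapped, as did those of the 8-week-old libraries, and the Osx-Cre interval lay below both 16-week-old ones. Depth moved with these shares: the Spp1/Ibsp-positive cells had medians of 866, 910, 1431.5 and 1336 UMIs and the Spp1/Ibsp-low cells medians of 721, 759.5, 734 and 576. Among cells under 750 UMIs the shares were 84.0%, 88.3%, 85.4% and 82.9%, with no ordering by age. Among cells of 1000 to 2000 UMIs they were 89.8%, 95.2%, 97.9% and 97.6%. With every cell thinned to 1000 UMIs, which left 196 cells of the Osx-Cre library, the shares were 86.7%, 92.6%, 97.0% and 96.6%. The Osx-Cre library was thus the lowest at 1000 to 2000 UMIs and after thinning, but not from 750 to 1000 UMIs, where the shares were 95.3%, 92.4%, 94.0% and 97.2%, nor above 2000, where it had 9 cells and all of them qualified. At the threshold, 146 Spp1/Ibsp-positive cells had exactly 3 UMIs and 135 Spp1/Ibsp-low cells had exactly 2, and 3461 of the 4713 had 10 or more.

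Spp1 and Ibsp carried the choice. Without Spp1 the shares dropped to 69.5%, 81.6%, 83.5% and 83.4%, and without both genes only 6.27%, 3.33%, 6.05% and 6.22% of stromal cells had 3 UMIs of Alpl, Wif1, Postn and Limch1.

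**Figure D2:**
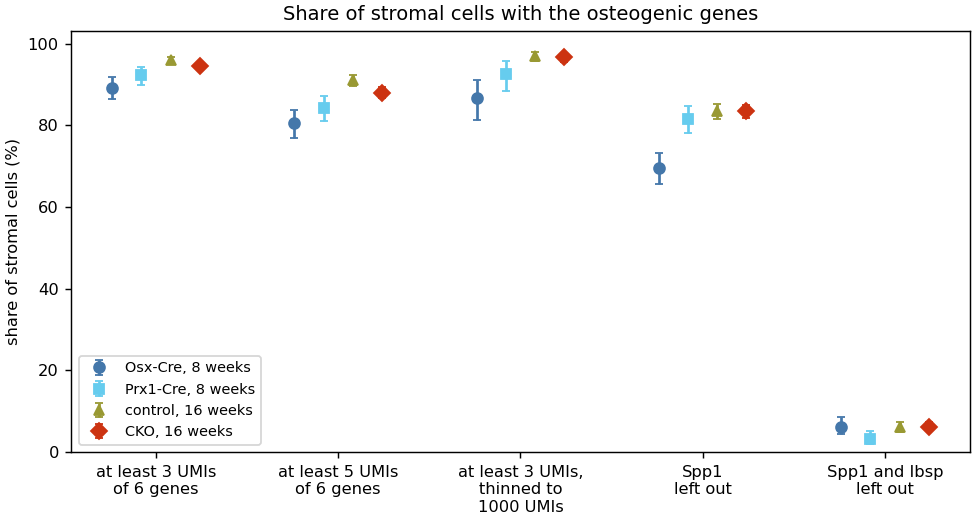
Percent of stromal cells with the osteogenic genes in each library, from left to right with at least 3 UMIs of the 6 genes, at least 5 UMIs, at least 3 UMIs after thinning each cell to 1000 UMIs, and at least 3 UMIs without Spp1 and without Spp1 and Ibsp, with exact binomial 95% intervals. The shares lie between 89.2% and 95.9% at 3 UMIs and fall to between 3.33% and 6.27% without both genes.

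To ask what else set the Spp1/Ibsp-positive cells apart, each of the 290 Spp1/Ibsp-low cells was paired with a Spp1/Ibsp-positive cell of its library and depth (60, 44, 71 and 115 pairs), and the UMIs were summed per library. Serpine2, Cldn10, Cavin3, Wisp2 and Cd63 were higher in the positive cells, and C4b and the immediate early genes Fos, Jun and Egr1 were lower. edgeR's quasi-likelihood test over the 4 libraries, with the library as a block and without the 13 genes of the rule, called 7 of 898 tested genes (0.780%) higher and 8 (0.891%) lower. Without the Osx-Cre library 1 gene was higher and 2 lower, without the Prx1-Cre library 4 and 6, and without the control library 1 and 6. edgeR without the library block called 0 genes in either direction, with 40 at an unadjusted p under 0.05. These p-values measure the spread of the difference over 4 libraries that were not replicates of one group. The pairs were not quite equal in depth, with medians of 799, 843.5, 815 and 637 UMIs in the positive cells and 721, 759.5, 734 and 576 in the low cells. With pairs drawn the other way round, each low cell choosing its partner, the medians were 720.5, 757.5, 733 and 575 UMIs in the positive cells, and 6 genes were higher and 6 lower. Of these, 2 and 5 were also called in the first pairing, and C4b and Serpine2 then had log2 fold changes of -0.64 and 0.56.

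Serpine2 encodes a secreted inhibitor of thrombin and plasminogen activators. It stood at 10734, 9730, 9617 and 10474 CPM in the positive cells and at 6994, 7083, 6901 and 8347 CPM in the low cells, so the classes did not overlap. Its log2 fold change was 0.44 ± 0.08 (SE; edgeR adjusted p = 0.00458). Cldn10, a claudin of tight junctions, was at 630, 580, 476 and 564 CPM against 339, 223, 262 and 283 CPM, again without overlap, and rose by 0.96 ± 0.22 on the log2 scale (edgeR adjusted p = 0.0232). Cavin3, a component of caveolae, was at 234, 227, 194 and 224 CPM against 79.7, 83.7, 65.6 and 82.6 CPM (log2 1.44 ± 0.35, edgeR adjusted p = 0.0342), on 3 to 21 UMIs per library and class. Wisp2, a secreted CCN family protein, was at 1171, 983, 893 and 596 CPM against 558, 586, 574 and 449 CPM, also without overlap (log2 0.68 ± 0.17, edgeR adjusted p = 0.0414). Cd63, a tetraspanin of endosomes and exosomes, rose by 0.43 ± 0.11 with the same adjusted p. All 5 genes were higher in the positive cells of every library. Serpine2 kept its call in 12 of 15 alternative settings, Cldn10 in 8 and Wisp2 in 7 of 15, but Cd63 in 3 of 15 and Cavin3 in 3 of 12.

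The last 2 genes called higher were the globins Hbb-bs and Hba-a1, and single cells carried them. In the control library 153 of the 171 Hbb-bs UMIs and 133 of the 146 Hba-a1 UMIs of the positive class lay in 1 cell, and Hba-a1 was higher in 2 of the 4 libraries only. The summed erythroid list of 11 genes stood at 594, 529, 6967 and 1213 CPM in the positive cells and at 558, 530, 1033 and 579 CPM in the low cells. Hbb-bs or Hba-a1 was its most abundant gene, and the red-cell membrane gene Slc4a1 was at 0 in both classes of all libraries. Hbb-bs turned to a log2 fold change of -0.22 when the pairs were drawn the other way round.

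C4b, the complement component C4, kept its call in 13 of 15 alternative settings, more than any other gene named here. It stood at 396, 403, 774 and 692 CPM in the positive cells and at 917, 753, 1492 and 1157 CPM in the low cells, lower within each library although the ranges overlapped between libraries. Its log2 fold change was -0.95 ± 0.16 (edgeR adjusted p = 0.0025). The immediate early transcription factor Fos was at 1243, 1638, 342 and 575 CPM against 2770, 2621, 344 and 1346 CPM. The control library thus showed no difference in Fos, and the change over all libraries was -0.93 ± 0.16 (edgeR adjusted p = 0.0025). Jun, its dimer partner, was at 756, 1008, 268 and 617 CPM against 2012, 1562, 328 and 1027 CPM (log2 -0.88 ± 0.17, edgeR adjusted p = 0.00458). Egr1, a zinc-finger gene of the same early response, fell by 1.31 ± 0.31 on the log2 scale (edgeR adjusted p = 0.0255) and kept its call in 5 of 15 alternative settings.

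Ccl2, a monocyte chemokine, was lower in each library at 18.0, 454, 134 and 117 CPM against 219, 2649, 197 and 189 CPM, but 86 of its 95 UMIs in the Spp1/Ibsp-low cells of the Prx1-Cre library came from 1 cell. Its log2 fold change was -1.80 ± 0.32 (edgeR adjusted p = 0.00278). mt-Co3, a mitochondrial subunit of cytochrome oxidase, was at 3890, 4487, 5940 and 6440 CPM against 4523, 5438, 9638 and 9174 CPM (log2 -0.48 ± 0.10, edgeR adjusted p = 0.00894). Mitochondrial transcripts as a whole moved with the classes, with medians of 1.69%, 1.84%, 2.68% and 2.86% of UMIs in all positive cells and 2.02%, 2.26%, 4.75% and 4.79% in the low cells. These are all positive cells and not the paired ones, so depth differed too, with medians of 866, 910, 1431.5 and 1336 UMIs against 721, 759.5, 734 and 576. The part of mitochondrial transcripts in the calls was not tested. Scp2, a lipid transfer protein, and Gm42418 fell by 0.90 ± 0.23 and 0.49 ± 0.13 (edgeR adjusted p = 0.0414 for both), and each kept its call in 2 of 15 alternative settings.

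With the single cell that held most UMIs of a gene left out of each sum, 744 genes were tested, of which 3 were higher (Serpine2, Cldn10 and the small proteoglycan Dcn) and 4 lower (Fos, C4b, Jun and mt-Co3). Hbb-bs dropped to a log2 fold change of 0.25, whereas Wisp2, Cd63, Egr1, Scp2 and Gm42418 lost their calls at 0.70, 0.40, -1.36, -0.92 and -0.51, close to their values over all cells. DESeq2 called no gene in either direction at an adjusted p under 0.05, with 27 genes at an unadjusted p under 0.05.

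Among the gene lists, 11 of the 21 genes of the immediate early and dissociation list, which also holds heat-shock genes such as Hsp90aa1, were tested, 3 fell, none rose and all 11 had a negative estimate, with a median log2 fold change of -0.46 against 0.01 over all 898 genes. The summed list had log2 ratios of -0.85, -0.36, 0.31 and -0.86, so the control library went the other way, with 3245 CPM in the positive and 2623 CPM in the low cells. None of the 3 tested osteoblast genes, the 3 osteogenic transcription factors, the 16 matrix genes or the 8 adipogenic genes was called. Their median log2 fold changes were -0.33, -0.21, 0.01 and -0.27. Of the 7 niche factors tested, Ccl2 alone was called. With so few members tested and under 1% of all genes called in either direction, counts of 0 say nothing about these lists.

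Endothelial transcripts, which the CD31 gate should remove, moved with the classes. The 13 genes of the endothelial list summed to 90.1, 202, 44.7 and 53.2 CPM in the paired positive cells and to 538, 502, 918 and 260 CPM in the low cells. Of the 13 genes 11, 8, 10 and 10 were at 0 in the low cells, and Pecam1, which encodes CD31 itself, had 8, 5, 1 and 7 UMIs there against 5, 2, 0 and 0 in the positive cells. Fabp4, the lipid carrier that adipocytes share, was the most abundant of them in the low cells, with 19, 7, 54 and 14 UMIs, of which 10, 2, 30 and 4 lay in 1 cell. The defining endothelial gene Cdh5 was at 0 in the low cells of all 4 libraries. In the CKO library the myeloid list summed to 6033 CPM in the low cells against 160 CPM in the positive cells, with 191 of the 194 S100a8 UMIs in 1 cell, and the pan-leukocyte gene Ptprc was at 0. The 17 genes of the chondrocyte list also summed lower in the positive cells of all libraries, at 684, 1084, 74.4 and 95.8 CPM against 1136, 1590, 328 and 224 CPM, on 5 to 57 UMIs per library and class. The cartilage collagen Col2a1 had 7, 7, 0 and 1 UMIs against 21, 19, 1 and 2, and 6, 6, 8 and 12 of the list's genes were at 0 in the low cells. The part of these transcripts in the calls was not tested.

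**Figure D3:**
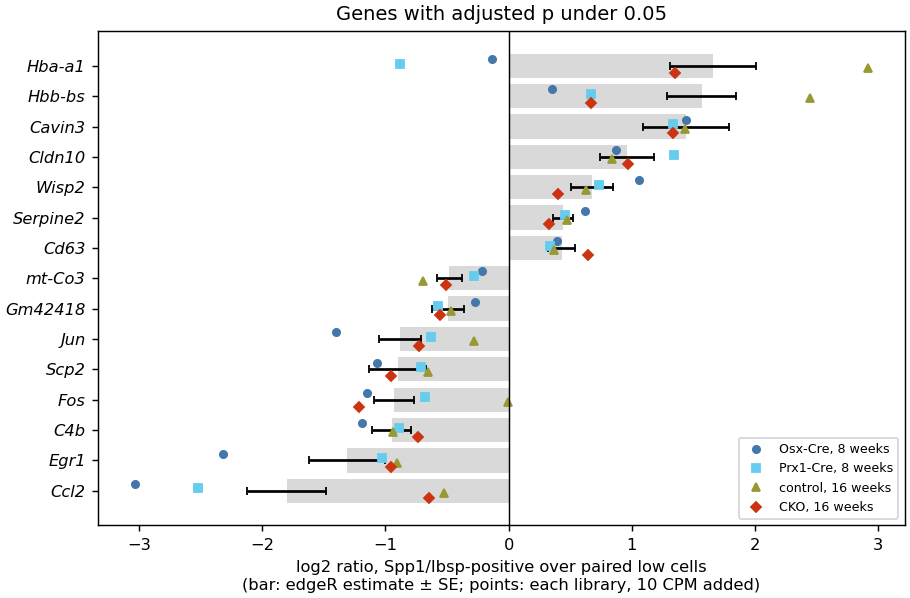
Genes with an adjusted p under 0.05 between Spp1/Ibsp-positive and paired Spp1/Ibsp-low stromal cells. Bars give edgeR's log2 fold change with an SE derived from the test's F statistic. Points give the log2 ratio of each library with 10 CPM added to each level. Serpine2, Cldn10, Cavin3, Cd63 and Wisp2 lie to the higher side and C4b and Jun to the lower side in all 4 libraries, Fos lies at 0 in the control library, and the globins are highest in the control library.

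The level of the 6 genes ran over a wide range among the positive cells, from 3 UMIs up to 52, 144, 295 and 326, with medians of 11, 13, 20 and 17. Cells thinned to 1000 UMIs were grouped by these UMIs into 3 to 5, 6 to 10, 11 to 20 and 21 or more. Mmp13, the collagenase of bone remodelling, stood at 151, 259, 375 and 451 CPM across these groups in the control library and at 188, 173, 305 and 432 CPM in the CKO library. Fos stood at 344, 444, 321 and 121 CPM in the control library and at 2281, 1448, 1272 and 746 CPM in the CKO library. In these libraries Mmp13 was highest, and Fos lowest, in the cells with most osteogenic UMIs. The 8-week-old libraries did not share both orders. In the Osx-Cre library Mmp13 stood at 368, 554, 918 and 1000 CPM and Fos at 2105, 1893, 1508 and 2471 CPM, highest in the top group. In the Prx1-Cre library Mmp13 stood at 850, 218, 505 and 343 CPM, highest in the lowest group, and Fos at 2100, 2218, 1538 and 1514 CPM. Runx2 had no such order in the control and CKO libraries, at 151, 101, 178 and 137 CPM and at 141, 100, 162 and 159 CPM. Their groups held between 93 and 551 cells, and those of the 8-week-old libraries between 19 and 91. These values are a description of the cells within each library.

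Since Spp1 and Ibsp marked nearly every stromal cell, the other 4 genes were used to describe variation within the positive cells. Cells with at least 2 UMIs of Alpl, Wif1, Limch1 and Postn numbered 80, 56, 229 and 279, which was 644 cells in all or 13.7%. They were set beside positive cells with none of these UMIs at like depth. The 638 cells that found a partner had medians of 985.5, 967, 2078 and 1677 UMIs, and medians of 11, 14, 28 and 25 UMIs of the 6 genes of the rule against 13, 14, 26 and 20 in their partners. This division was made after the values had been seen and carries no test. Over 3247 genes with enough UMIs, 31 (0.955%) were higher in all 4 libraries with a mean of at least 2-fold, and 19 (0.585%) were lower to that extent. A direction shared by all 4 libraries at any size was held by 297 genes (9.15%) upward and 360 (11.1%) downward.

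Mmp13 differed most among the genes of at least 200 CPM. It stood at 1528, 876, 873 and 717 CPM in the cells with the 4 genes and at 244, 287, 251 and 147 CPM in those without, and the groups did not overlap. Olfml3, a secreted olfactomedin protein, was at 1042, 842, 761 and 814 CPM against 360, 270, 357 and 408 CPM. Tnc, the matrix glycoprotein tenascin C, was at 1829, 1398, 1740 and 1611 CPM against 814, 708, 1009 and 958 CPM. The lowest ratio of any library was 3.05 for Mmp13, 2.00 for Olfml3 and 1.68 for Tnc. Pth1r, the receptor of parathyroid hormone, was at 289, 320, 250 and 268 CPM against 139, 50.6, 195 and 125 CPM. Lifr, the leukaemia inhibitory factor receptor, had a mean log2 ratio of 1.10, and Col8a1, a short-chain collagen, one of 1.00. The transcription factor Maf and the calcium-binding protein S100b followed at 0.95 and 0.90, and Rmnd1 and Tuba1c at 1.02 and 0.91.

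Lower in the same cells were the matrix calcification inhibitor Mgp, at 938, 1162, 2214 and 2431 CPM against 2662, 2832, 3011 and 3097 CPM, and the chemoattractant Rarres2 (chemerin), at 521, 539, 882 and 786 CPM against 825, 1315, 1327 and 1207 CPM. Mgp differed more in the 8-week-old libraries (log2 ratio -1.49 and -1.28) than in the 16-week-old ones (-0.44 and -0.35), a contrast that was not tested. Serpina3n, an acute-phase protease inhibitor, had a mean log2 ratio of -1.02, and the small proteoglycan Prelp one of -0.95. Glul, the glutamine synthetase, stood at -0.94, the lipocalin Apod at -0.91 and complement factor Cfb at -0.79. Serpina3f, Hba-a1 and 1 of the 2 genes named Ccl19 were at -0.71, -0.76 and -0.75. With at least 3 UMIs of the 4 genes required, a setting added after the values were seen, the directions of the means held. The means of 11 of the 20 genes grew in size by more than the main setting's SD over libraries. Mmp13 came to 2.69, Pth1r to 2.12, Serpina3n to -2.03, Prelp to -1.89, Cfb to -1.87 and Mgp to -1.80, while Ccl19 came to -0.41. For Mmp13, Pth1r, Serpina3n, Prelp, Cfb and Mgp the SDs at this setting were 1.00, 2.17, 1.82, 2.00, 1.93 and 1.78. The moves of these genes lay within those SDs, so no growth can be read from their means.

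Against 9.15% of all genes higher and 11.1% lower in all 4 libraries, 4 of the 6 osteoblast genes with enough UMIs were higher and none was lower, with a median of the mean log2 ratios of 1.01 against 0.02 over all genes. The summed list had log2 ratios closer to 0, of 0.15, 0.33, 0.26 and 0.44. Col1a1 stood at 324, 404, 313 and 131 CPM against 256, 270, 212 and 105 CPM, and Col1a2 differed by a mean log2 ratio of 0.11. Car3 and Cadm1, also on this list, rested on 0 to 39 UMIs per library and group. The genes of the 6 that were not higher throughout shared no direction over the 4 libraries. Of the 7 osteogenic transcription factors 1 was higher throughout, a share near that of all genes: Dlx5, with a mean log2 ratio of 0.37 on at most 49 UMIs per library and group. Of 13 genes of the immediate early and dissociation list 9 were lower in all 4 libraries and none was higher, and the summed list had log2 ratios of -0.46, -0.31, -0.44 and -0.46. Of 5 Notch pathway genes 3 were lower throughout. The 10 adipogenic genes were divided, with 1 higher and 3 lower. The erythroid list summed to 417, 607, 783 and 518 CPM with the 4 genes and to 511, 455, 2680 and 638 CPM without. The endothelial list summed to 46.3, 152, 21.6 and 50.4 CPM with and to 174, 169, 49.7 and 101 CPM without, with Cdh5 at 0 with the 4 genes in all libraries. The chondrocyte list summed to 660, 960, 203 and 443 CPM with and to 1499, 1500, 138 and 815 CPM without. The part of these transcripts in the differences was not tested.

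**Figure D4:**
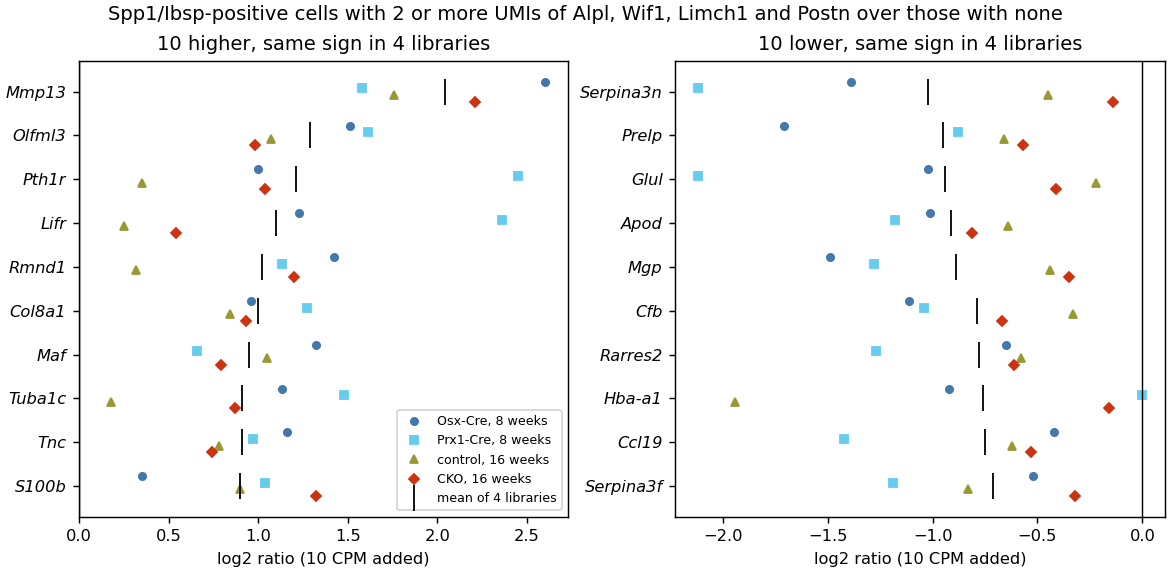
Log2 ratio (10 CPM added to each level) between Spp1/Ibsp-positive cells with at least 2 UMIs of Alpl, Wif1, Limch1 and Postn and depth-matched positive cells with none, for the 10 highest and 10 lowest genes, with each library as a point and the mean of the 4 libraries as a line. Mmp13 leads the higher genes at 2.04 and Serpina3n the lower ones at -1.02, and the points of a gene lie on one side of 0, with Hba-a1 of the Prx1-Cre library next to it.

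The question of the 16-week-old pair was what the Z24 deletion changed. Zmpste24 itself had 17, 11, 56 and 11 UMIs in the positive cells, which was 36.6, 21.6, 20.6 and 3.66 CPM, so the CKO library was lowest. The tags lie at the 3′ end of the transcript, outside the floxed exon, and do not measure the deletion directly. The labels set the groups here, whereas the study's methods give the cell numbers of these libraries for the opposite genotypes. The lower Zmpste24 level lies in the library labelled CKO, at 3.66 CPM (exact Poisson 95% interval 1.83 to 6.55) against 20.6 CPM (15.6 to 26.8) in the control. If the labels were exchanged, every direction between control and CKO would turn. The comparison of CKO with control cells has no replicate and no test. Of 9667 genes with enough UMIs, 59 (0.610%) were at least 1.5 times higher in CKO cells with 10 CPM added to each level and 85 (0.879%) at least 1.5 times lower, and the median log2 ratio of all of them was -0.04. The immediate early and dissociation list held 14 of the higher genes and the interferon-response list 10 of the lower ones.

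Fos had 674 UMIs in 1682 control cells and 3649 UMIs in 2007 CKO cells, which was 248 CPM (exact Poisson 95% interval 230 to 267) and 1214 CPM (1174 to 1254), a ratio of 4.89. A Fos UMI was present in 13.8% of control and 38.3% of CKO cells. Fos was as high or higher in the 8-week-old libraries, at 1647 and 1850 CPM, so the control library was the low one of the 4. The Spp1/Ibsp-low cells also differed, with 344 CPM in the control and 1346 CPM in the CKO library. Fosb went from 50.4 to 212 CPM between control and CKO, the stress-induced mTOR inhibitor Ddit4 from 22.1 to 84.5, the helix-loop-helix inhibitor Id2 from 36.4 to 122 and the transcription factor Cebpb from 100 to 295 CPM. Of the 18 genes of the immediate early and dissociation list with enough UMIs, 14 were at least 1.5 times higher in CKO cells and none was as much lower, and the list summed to 8964, 9403, 2965 and 6914 CPM.

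The 5 lowest genes in CKO cells rested largely on single control cells. The neutrophil gene S100a8 and the chemokine Ccl5 were at 117 and 67.3 CPM in control and 15.3 and 3.33 CPM in CKO cells, with 197 of 317 and 173 of 183 control UMIs in 1 cell. The globins Hba-a2, Hbb-bs and Hba-a1 were at 617, 1266 and 1018 CPM in control and at 88.5, 215 and 235 CPM in CKO cells, and 1 control cell held 1081, 2121 and 1558 of their UMIs. Without the highest cell of each library their log2 ratios were -1.34, -1.25 and -0.97, and those of S100a8 and Ccl5 were -1.40 and -0.28. The erythroid list as a whole summed to 543, 707, 3310 and 724 CPM, so the control library stood apart. Of its 11 genes 2, 2, 0 and 0 were at 0.

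The interferon-response list was spread over more cells. Of its 21 measured genes 10 were at least 1.5 times lower in CKO cells and none was as much higher, with a median log2 ratio of -0.52. The T-cell chemokine Cxcl9 was at 142, 74.5, 126 and 31.6 CPM, with 342 UMIs over 114 control cells and 95 UMIs over 47 CKO cells. The immunity-related GTPase Iigp1 was at 220, 218, 256 and 109 CPM. Cxcl10 was at 57.4 CPM in control and 11.3 CPM in CKO cells, although 67 of the 156 control UMIs lay in 1 cell. The CKO library was the lowest of the 4 for Cxcl9 and Iigp1, and the 8-week-old Prx1-Cre library lay between it and the control for Cxcl9.

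Of 30 matrix genes 1 passed 1.5-fold, with a median log2 ratio of -0.05, and none of 16 osteogenic transcription factors did, which at 0.610% and 0.879% of all genes tells neither list from the rest. Of 8 osteoblast genes 3 were lower in CKO cells and none higher, and the summed list stood at 1631 and 1315 CPM in the control and CKO libraries. Bglap, at 130 and 59.2 CPM, had 88 of 354 control and 50 of 178 CKO UMIs in 1 cell each. Pparg, the master regulator of adipocytes, was at 62.9 CPM in control and 32.3 CPM in CKO cells, while Cebpb and Cebpd, which act before it, were higher in CKO cells, Cebpd at 252 and 576 CPM. Of 17 adipogenic genes 2 were higher and 2 lower past 1.5-fold, and the list summed to 15587 and 15134 CPM. Chondrocyte genes were higher in CKO cells for 4 of 10 genes, but 108 of the 178 Col2a1 UMIs came from 1 cell.

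**Figure D5:**
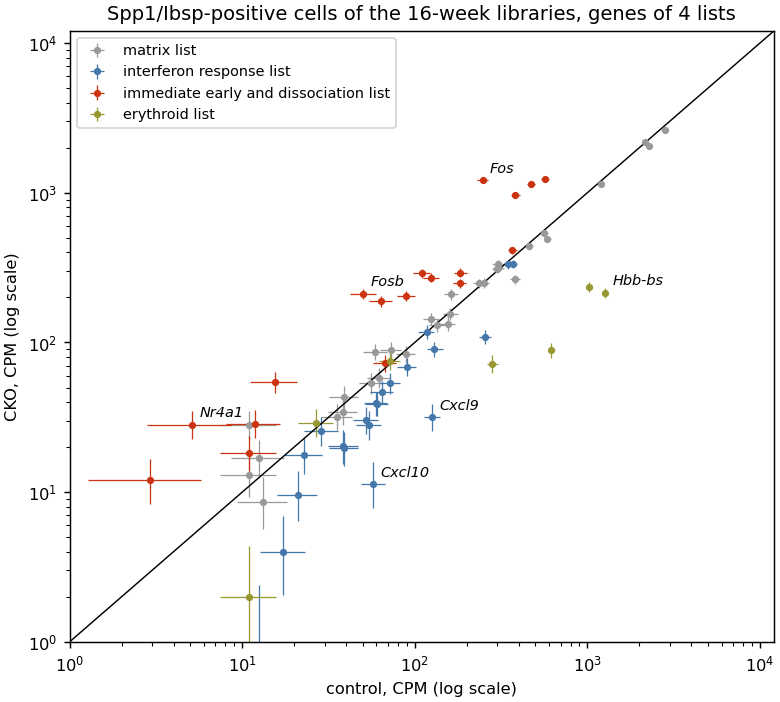
Level in CKO against level in control Spp1/Ibsp-positive cells, in CPM on log axes, for genes of the matrix, interferon-response, immediate early and dissociation, and erythroid lists with a UMI in both, with exact Poisson 95% intervals that cover counting error only and a line of equal levels. Fos, at 248 CPM in control and 1214 CPM in CKO cells, and other genes of its list lie above the line, Cxcl9 and the globins below it, and the matrix genes along it.

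The 8-week-old pair compared cells that had descended from Prx1-Cre with cells that had descended from Osx-Cre expression. Of 4256 genes with enough UMIs, 176 (4.14%) were at least 1.5 times higher in the Prx1-Cre cells and 279 (6.56%) at least 1.5 times lower, again with no replicate and no test. Among the 5 highest, the neutrophil genes Ngp, S100a9 and Camp had 117 of 117, 145 of 154 and 125 of 128 UMIs in 1 Prx1-Cre cell, and Msmp, at 0 UMIs in Osx-Cre cells, had 253 of 254 in 1 cell. Cytl1, a cytokine-like protein of cartilage, was at 17.2 and 135 CPM, and at a log2 ratio of 1.75 without its highest cell, which held 39 of its 69 UMIs. The higher side was therefore led by single cells. The 5 lowest genes were Gm26825, with 46 UMIs in Osx-Cre and 0 in Prx1-Cre cells (at least 16.9-fold lower against a floor of 3 UMIs), the sialyltransferase St6galnac2, at 106 and 23.5 CPM, the detoxifying enzyme Gstp1, at 207 and 54.9, the trafficking GTPase Rab1b, at 62.5 and 13.7, and Fabp4, at 64.7 and 17.6 CPM, with 12 of its 30 Osx-Cre UMIs in 1 cell. Mmp13 stood at 757 and 439 CPM, with 29.1% and 21.3% of cells holding a UMI, and Timp3, an inhibitor of such proteases, at 30.2 and 116 CPM. Of 7 osteoblast genes 4 were lower in Prx1-Cre cells, but the log2 ratios of Bglap and Col1a1 were 0.25 and 0.03 without the highest cell of each library. The 14 genes of the immediate early and dissociation list with enough UMIs included none past 1.5-fold, which at 4.14% and 6.56% of all genes does not tell this list from the rest.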

How the data were processed

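UMI counts per gene and cell were deposited by the authors as 10x matrices. Per the study's methods they came from Chromium 3′ v2 libraries processed with Cell Ranger, and the submitters' processing notes name the build mm10. The bulk RNA-seq and chromatin accessibility samples of the series were not used here. Cells with at least 200 genes were kept. The members and gene lists were chosen with earlier results of these data known, and 2 list genes were not found by a unique symbol (Ccl19 and Ahsp). Scrublet (scanpy 1.11.5) marked 10 of 6205 cells (0.161%), too few to be taken as a working call, so doublets stayed in.

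From the deepest down, each positive cell took the nearest unused Spp1/Ibsp-low cell of its library within 10% of its UMIs, until all low cells were paired. Sums per library and class went to edgeR 4.0.16 in R 4.3.3 (quasi-likelihood test, TMM, filterByExpr, library as a block, Benjamini-Hochberg adjustment, 3 residual degrees of freedom), with DESeq2 1.42.0 as an alternative. The block is the library itself, since both classes come from each. Each SE was derived as the absolute log2 fold change divided by the square root of edgeR's F statistic. On simulated counts of 915 genes for this comparison, 65 of 82 genes changed 2-fold (79.3%) and 83 of 83 changed 4-fold were recovered, with 4 of 750 unchanged genes called. Changed genes that the filter removed are not in these counts. The simulation used the same assumed dispersion for every gene and library, and no single cells that hold most UMIs of a gene. Its figures hold for that setting only and give no rate of recovery or of false calls for the real sums.

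Named genes were, in the test, up to 10 called genes per direction with the same sign in all 4 libraries and at least 50 CPM in the higher class. Within the positive cells they were the 10 highest and 10 lowest of a mean of 200 CPM in the higher group, a minimum raised after the values were seen. Between libraries they were the 5 highest and 5 lowest with Poisson intervals apart. Other genes named were chosen after their values were seen or are list members. Log2 ratios have 10 CPM added to each level, which understates low genes. Genes counted needed 30 UMIs over the groups and, within the positive cells, 50 CPM. Poisson and binomial 95% intervals and the floor of 3 UMIs cover counting error only. Coordinates are from GRCm38 (GENCODE M21). Alternatives were the thresholds, thinning to 1000 UMIs, other pairings, normalisations and filters, and each library left out.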

Additional observations from a re-analysis of the deposited data

Results flagged for a closer look

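The sums of some gene lists moved one way in both 8-week-old libraries and the other way in both 16-week-old ones, and none of these contrasts was tested. The matrix list, in Spp1/Ibsp-positive over paired Spp1/Ibsp-low cells, had log2 ratios of its summed level of 0.16, 0.02, -0.06 and -0.10 in the Osx-Cre, Prx1-Cre, control and CKO libraries. The interferon-response list, in positive cells with 2 or more UMIs of Alpl, Wif1, Limch1 and Postn over those with none, had log2 ratios of 0.01, 0.40, -0.44 and -0.05. Several of these values lie close to 0. In positive over paired low cells, the osteoclast list had log2 ratios of -0.66, -0.68, 0.39 and 0.68, on at most 13 UMIs per library and class. The myeloid list had log2 ratios of 1.89, 0.50, -0.59 and -5.15, and a single low cell held most S100a8 UMIs of the CKO library.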

How the results depend on the processing

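Libraries are given in the order Osx-Cre, Prx1-Cre, control, CKO. The share of stromal cells that met the osteogenic minimum was 94.6%, 94.2%, 98.1% and 97.3% with a minimum of 2 UMIs, 80.5%, 84.2%, 91.0% and 88.0% with 5 UMIs, and 69.5%, 81.6%, 83.5% and 83.4% without Spp1. It was 86.7%, 92.6%, 97.0% and 96.6% at 1000 UMIs per cell. Without Spp1 and Ibsp, a setting added after seeing the data, it was 6.27%, 3.33%, 6.05% and 6.22%.

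The counts of genes higher and lower in positive than in paired low cells (7 and 8) were 0 and 0 with DESeq2 (27 genes at an unadjusted p under 0.05), 0 and 0 with no replicate block in edgeR (40 at an unadjusted p under 0.05), 23 and 29 without Spp1 in the rule (3726 genes tested), 12 and 26 with all positive cells in place of the depth-matched ones and 11 and 11 with no filter on low counts. A minimum of 5 UMIs gave 8 and 17. Leaving out each library gave 1 to 6 higher and 2 to 9 lower genes. Without the Osx-Cre library there were 1 and 2, without Prx1-Cre 4 and 6, without the control 1 and 6 and without CKO 6 and 9. Leaving out the highest cell of each gene, added after seeing the data, gave 3 and 4. C4b kept its call in 13 of 15 alternatives, Fos and Serpine2 in 12, Jun and mt-Co3 in 11, Cldn10 in 8, Wisp2 in 7, Hbb-bs in 6, Egr1 in 5, Cd63 in 3 and Scp2 and Gm42418 in 2, while Ccl2 kept it in 8 of 14 and Cavin3 in 3 of 12.

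Within the positive cells, 11 of 60 mean log2 ratios moved by more than the main setting's SD over libraries, and none reversed. Each did so with at least 3 UMIs of the 4 genes and away from 0. Of these 11, Apod alone also moved by more than its SD at that setting (0.26), so the others cannot be read as growth.

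Hbb-bs reversed to -1.14 without Spp1, to -0.22 with pairs drawn from the low cells (added), to -0.11 with pairs matched on UMIs outside the rule's genes and to -1.66 with a minimum of 5 UMIs. Between the 8-week-old libraries, Ngp and Camp reversed to -0.54 and -0.06 without their highest cell and with a stromal minimum of 2%. The cause was not tested. With medians of 576 to 759.5 UMIs in the low cells, osteocyte, chondrocyte and endothelial genes were too few in UMIs to be tested.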
